A study of Mus musculus with 24 samples.

Results

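Oxidative phosphorylation genes, the nuclear genes for subunits of the mitochondrial respiratory chain and ATP synthase, were followed across 24 whole-genome expression arrays of mouse embryonic fibroblasts. Members were the genes whose array name starts with Nduf, Sdha, Sdhb, Sdhc, Sdhd, Uqcr, Cyc1, Cox4, Cox5, Cox6, Cox7, Cox8 or Atp5, which gave 83 of the 27962 gene names on the array, measured by 114 of its oligonucleotides. Of these, 79 were subunits, and 4 carried a shared prefix without being a subunit of the complex. The fibroblasts in all 8 groups were Ku70-/-, that is, they lacked a subunit of the Ku heterodimer that binds broken DNA ends in end joining. The question of the study was how bisphenol A (BPA), a plasticizer, alters the response of these cells to potassium bromate (KBrO3), an oxidizing agent that damages DNA bases.

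The first array set held 5 groups: untreated control cells (labelled 4 hr), cells given 20 mM KBrO3 and harvested at 4 hr or 24 hr, and cells co-exposed to 20 mM KBrO3 and 150 µM BPA and harvested at 4 hr or 24 hr. In the co-exposure, BPA was present before, during and after KBrO3, which was washed out after 1 hr. A second set held 3 groups, namely its own untreated control cells (no time given in the label) and cells given 150 µM BPA without KBrO3 for 4 hr or 24 hr. Each group had 3 arrays, which the study describes as biological replicates. The labels do not say whether these came from separate cultures, so p-values measure the spread between these samples. The first set had no untreated 24 hr array, so its comparisons with control at 24 hr set a 24 hr culture against a 4 hr culture, and there the hours in culture cannot be told apart from the treatment.

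Oxidative phosphorylation passes electrons from NADH through complex I (NADH dehydrogenase) and from succinate through complex II (succinate dehydrogenase) to coenzyme Q, then through complex III and cytochrome c to complex IV (cytochrome c oxidase), which reduces oxygen. Complexes I, III and IV pump protons across the inner membrane, and complex V (ATP synthase) uses the gradient to make ATP. Complex II is encoded wholly in the nucleus, and the other complexes combine nuclear subunits with subunits read from mitochondrial DNA. The array listed none of the mitochondrially encoded subunits under their names, so the values below concern the nuclear genes alone.

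Promoters are shown for 4 members on which the results below turn: Ndufb3 and Ndufb7 (accessory subunits of complex I) and Sdhd (a membrane anchor of complex II), which were lower at 4 hr when BPA was added to KBrO3, and Cox5a (complex IV), which rose after every KBrO3 treatment. The windows hold 250 bases before and 30 bases after the annotated start, read from RefSeq on GRCm38.p6, and capitals mark a match to a searched motif. They lie at chr1:58586147-58586426 (plus strand, Ndufb3), chr8:83566508-83566787 (plus strand, Ndufb7), chr9:50603820-50604099 (minus strand, Sdhd) and chr9:57520982-57521261 (plus strand, Cox5a).
Ndufb3: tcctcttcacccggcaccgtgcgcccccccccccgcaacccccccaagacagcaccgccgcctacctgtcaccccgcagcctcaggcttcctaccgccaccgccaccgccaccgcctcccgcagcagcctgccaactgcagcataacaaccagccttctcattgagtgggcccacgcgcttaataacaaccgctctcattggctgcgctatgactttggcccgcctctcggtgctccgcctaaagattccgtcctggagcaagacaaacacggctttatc
Ndufb7: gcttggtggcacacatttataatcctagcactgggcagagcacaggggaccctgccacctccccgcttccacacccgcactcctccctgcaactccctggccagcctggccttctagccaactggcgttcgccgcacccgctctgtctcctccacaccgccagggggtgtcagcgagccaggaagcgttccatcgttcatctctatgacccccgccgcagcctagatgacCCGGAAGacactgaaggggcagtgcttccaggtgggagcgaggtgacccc
Sdhd: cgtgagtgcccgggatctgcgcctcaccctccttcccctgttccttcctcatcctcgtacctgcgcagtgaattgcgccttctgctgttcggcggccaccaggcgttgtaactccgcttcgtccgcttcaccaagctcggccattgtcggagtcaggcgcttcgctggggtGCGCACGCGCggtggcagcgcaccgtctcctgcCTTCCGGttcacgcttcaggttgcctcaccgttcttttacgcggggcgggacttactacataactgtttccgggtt
Cox5a: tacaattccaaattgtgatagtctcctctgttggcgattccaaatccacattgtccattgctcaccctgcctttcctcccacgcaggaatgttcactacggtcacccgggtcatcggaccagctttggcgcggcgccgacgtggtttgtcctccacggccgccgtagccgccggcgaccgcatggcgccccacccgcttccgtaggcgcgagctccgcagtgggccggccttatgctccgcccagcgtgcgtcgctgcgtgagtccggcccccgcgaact

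The motifs searched on both strands were the NRF1 motif and those of ETS factors such as GABPA (CCGGAAG), both known activators of nuclear mitochondrial genes, together with YY1 (ATGGCGGC), the antioxidant response element (TGACNNNGC) and the E-box (CACGTG). Ndufb7 held the ETS letters from base -20 to -14 relative to the start. Sdhd held the NRF1 letters from -79 to -70 and the ETS letters from -46 to -40. No searched letters were found in the windows of Ndufb3 and Cox5a. Among 67 members with a promoter in the table, 15 (22.4%) held the NRF1 letters, against 4.57% of the 27025 genes with a promoter there. The ETS letters were found in 16 members (23.9%) and in 8.7% of all promoters. Smaller gaps separated members from all promoters for the antioxidant response element (13.4% and 11.6%), the E-box (8.96% and 6.89%) and YY1 (2.99% and 1.69%). A match is a description of the letters and was not a measurement of binding.

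Signals were well above background on 57.7% to 68.1% of spots in the first set and on 76.4% to 79.4% in the second, and 80 members were well above background on all 24 arrays. The exceptions were tissue isoforms of complex IV: Cox4i2 on 14 arrays, Cox8b on 10 and Cox8c on none. All 9 fibroblast markers looked at (among them Col1a1, Vim and Thy1) were above background on every control array, whereas 7 of 10 muscle markers were below background on every control of the first set and 2 of 10 on every control of the second, where 6 were above background on all 3 controls. The oligonucleotide for Xrcc6, the gene of Ku70, gave a signal in both control groups, and whether it lies in the deleted part is not known, so it was no check of the genotype. The summed level of the fibroblast markers (linear, relative to the 75th percentile) moved with the groups of the first set, from 1500 to 1600 in control to 1390 to 1480 after KBrO3 and 1030 to 1070 after co-exposure at 4 hr, and 657 to 745 and 447 to 526 at 24 hr. Far lower sums moved with the same groups for the 3 macrophage markers (0.143 to 0.186 in control, 0.62 to 0.666 after KBrO3 and 0.456 to 0.462 after co-exposure at 4 hr, and 0.294 to 0.326 and 0.403 to 0.494 at 24 hr), of which 1 was above background on all controls. The sum of the 3 endothelium markers, none of them above background on all controls, was 0.032 to 0.0455 in control and 0.0516 to 0.0971 in the treated groups. The 3 epithelium markers, 2 of them above background on all controls, summed to 0.099 to 0.113 in control and 0.188 to 0.198 after co-exposure at 4 hr, and the 2 brown fat markers to 0.0508 to 0.066 in control and 0.0965 to 0.119 in both treated groups at 4 hr. The 4 blood markers, 3 of them above background on all controls, summed to 0.239 to 0.374 in control. They summed to 0.365 to 0.439 after KBrO3 at 4 hr and 0.149 to 0.186 after co-exposure at 24 hr. In the second set the fibroblast sum was 674 to 779 in control and 546 to 636 after BPA at 24 hr. The blood sum there was 0.207 to 0.406 and 0.406 to 0.42. The part of these markers in the results below was not tested. In such bulk samples, fewer cells of a kind and less RNA per cell cannot be told apart. Levels below are log2 of the processed signal minus the 75th percentile of the array, a change is called where the adjusted p of limma's test was below 0.05, and each ± is an SE of the fit unless marked SD.

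In untreated cells of the first set, the median level of the 80 members tested in both sets was 4.43, 4.47 and 4.47 on the 3 arrays. KBrO3 at 4 hr left it at 4.49, 4.48 and 4.46. Co-exposure at 4 hr gave 4.21, 4.18 and 4.22, below every other array of the first set. At 24 hr the medians were 4.38, 4.46 and 4.45 after KBrO3 and 4.61, 4.62 and 4.51 after co-exposure. On this scale the co-exposed arrays were the lowest of the set at the earlier time and the highest at the later time, although gene by gene the members' median change from control at 24 hr was -0.034, and quantile normalization placed them below KBrO3 at 24 hr (median difference -0.068). Spread was far wider in the second set, where the controls read 4.09, 3.88 and 3.26 (SD 0.432, against 0.0218 in the first set).

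**Figure D1:**
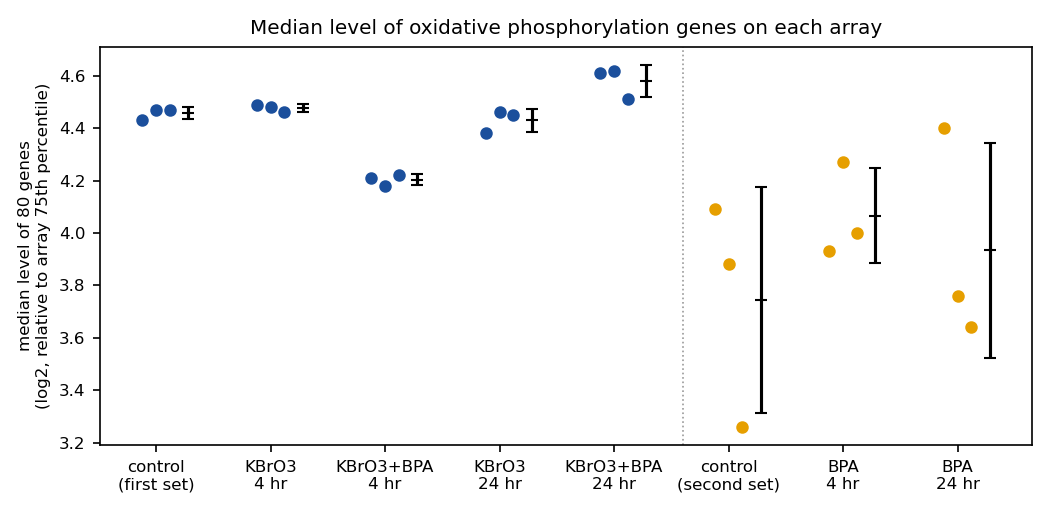
Median level (log2, relative to the 75th percentile of each array) of 80 oxidative phosphorylation genes on each of 24 arrays, with the mean and SD of each group beside its 3 points; first set in blue, second set in orange. Co-exposed arrays lie between 4.18 and 4.22 at 4 hr and between 4.51 and 4.62 at 24 hr, and the second set's controls span 3.26 to 4.09.

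After KBrO3 alone at 4 hr, the members split in both directions. Of 80 tested, 18 rose and 22 fell (22.5% and 27.5%), where 34.5% of all 18473 genes tested rose and 36.6% fell, and the median log2 fold change of the members was -0.014. By complex, 7 of 10 ubiquitous subunits of complex IV, 5 of 15 of complex V and 3 of 8 of complex III rose and none of them fell, whereas 4 of 7 core subunits and 12 of 29 accessory subunits of complex I and 2 of 4 subunits of complex II fell. Quantile normalization gave 6 higher and 55 lower, and normexp background correction 21 higher and 3 lower, so the balance of directions depended on the scaling. Called in the same direction under the main scaling and 3 others (quantile, array median, normexp) were Cox4nb, Cox5a, Cox7a2, Cyc1 and Ndufa10, which rose, and Atp5s, Cox7a1 and Ndufaf1, which fell.

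After co-exposure at 4 hr, 11 members rose and 51 fell against control (13.8% and 63.7%), where 40.4% of all genes rose and 38.2% fell. The median log2 fold change of the members was -0.21, and that of all genes 0.052. By complex, 24 of 29 accessory and 5 of 7 core subunits of complex I, 2 of 4 of complex II, 6 of 8 of complex III, 3 of 10 ubiquitous subunits of complex IV and 8 of 15 of complex V fell. Under quantile normalization 8 rose and 64 fell, and under normexp 12 rose and 9 fell with a median of 0.07 against a median of -0.44 for all probes. The 9 that fell under all 4 scalings were Atp5k, Atp5s, Cox6b2, Ndufa6, Ndufaf1, Ndufb3, Ndufb5, Sdhc and Sdhd, and the 6 that rose were Atp5f1, Cox4nb, Cox5a, Cyc1, Ndufa10 and Ndufb6. No slide held arrays of both groups, here or in the comparisons of the 24 hr groups with control, so the slide and the treatment cannot be told apart in these 3 comparisons.

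**Figure D2:**
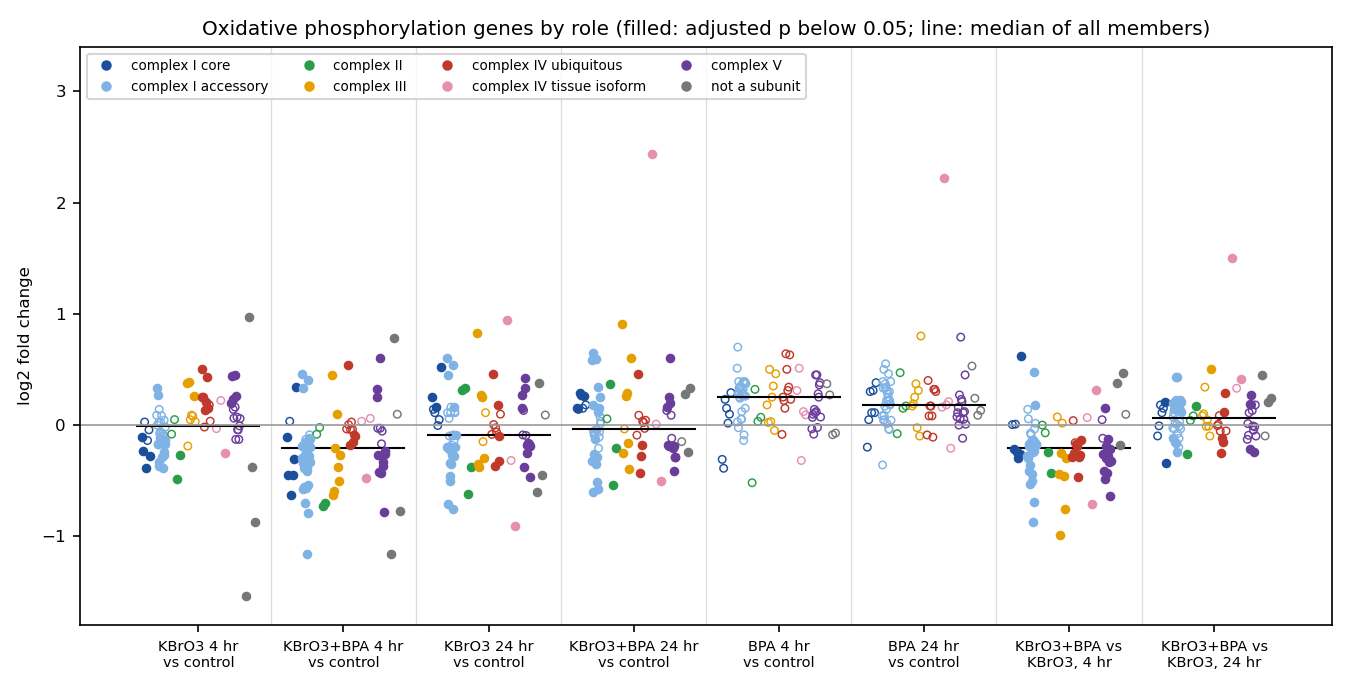
Log2 fold change of each tested member in 8 comparisons, coloured by role; filled points have an adjusted p below 0.05, open points do not, and the black line is the median of the members. The line lies lowest in the 2 comparisons of co-exposure at 4 hr, and Cox6a2 stands above all other members in the 4 comparisons at 24 hr.

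The direct comparison of co-exposure with KBrO3 alone at 4 hr addressed the addition of BPA. Of 80 members, 54 were lower and 7 higher when BPA was present (67.5% and 8.75%), where 30.3% of all genes were lower and 28.8% higher. Their median log2 fold change was -0.20 (all genes 0.0074), and it stayed between -0.13 and -0.34 under quantile normalization, array median scaling and normexp, although normexp called only 5 lower and 3 higher. Lower calls came from complex V (12 of 15), ubiquitous complex IV (8 of 10), complex III (6 of 8), complex I (20 of 29 accessory and 4 of 7 core subunits) and complex II (2 of 4). The 3 arrays of co-exposure at 4 hr and the 3 of KBrO3 at 4 hr lay on different slides, so here too the slide and the treatment cannot be told apart. KBrO3 24 hr replicate 1, the only array of another group on the slide of the co-exposed arrays, was lower than the mean of the other KBrO3 24 hr arrays for 59 of 80 members (73.8%, median difference -0.069) and for 46% of all genes. With slide as a random block, 39 members were called lower and 6 higher. The share of all genes called in that fit is not given, so this count does not compare the members with other genes.

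The largest fall was that of Uqcrb, a nuclear subunit of complex III that binds ubiquinone. Its level was 4.88, 4.83 and 4.85 after KBrO3 at 4 hr and 3.84, 3.89 and 3.86 after co-exposure, with controls at 4.42, 4.54 and 4.41. The co-exposed arrays thus lay below the controls and the KBrO3 arrays above them, with no overlap among the 3 groups. The difference between co-exposure and KBrO3 was -0.99 ± 0.149 on the log2 scale (limma, adjusted p = 1.62e-04). On KBrO3 24 hr replicate 1, which shared the slide of the co-exposed arrays, Uqcrb differed from the mean of the other 2 arrays of its group by -0.33. The rise of Uqcrb after KBrO3 alone at 4 hr (0.39 ± 0.149) and its fall after KBrO3 alone at 24 hr (-0.38) were each lost in 5 of 6 fits that left out 1 array.

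Ndufb3, an accessory subunit in the membrane arm of complex I, came next. It read 4.41, 4.43 and 4.32 in control, 4.12, 4.10 and 4.05 with KBrO3 and 3.22, 3.19 and 3.25 with co-exposure at 4 hr. The difference between co-exposure and KBrO3 was -0.87 ± 0.0685 (adjusted p = 1.16e-06), whereas the change after KBrO3 alone, -0.29 ± 0.0685, was 0.0054 under normexp. By 24 hr its level was 4.11, 4.19 and 4.21 after KBrO3 and 4.11, 4.24 and 3.93 after co-exposure, and the difference of -0.076 ± 0.0685 was not called (adjusted p = 0.387).

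Ndufb7, whose promoter is shown above, was also lower with BPA added at 4 hr. Controls read 5.59, 5.57 and 5.57 and KBrO3 arrays 5.47, 5.50 and 5.47, and co-exposed arrays 4.76, 4.79 and 4.83. The addition of BPA changed it by -0.69 ± 0.0973 (adjusted p = 9.54e-05), while KBrO3 alone at 4 hr differed from control by -0.098 ± 0.0973, which was not called. On KBrO3 24 hr replicate 1, the array that shared the slide of the co-exposed arrays, Ndufb7 differed from the mean of the other 2 arrays of its group by -0.23. Uqcrh, a hinge protein of complex III, and Atp5k, a small membrane subunit of complex V, lie outside the rule for named genes and were picked after their values were seen; their differences were -0.76 ± 0.0504 and -0.64 ± 0.0569.

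Complex II showed a split between its catalytic and its anchor subunits. Sdhc and Sdhd, which anchor the enzyme in the membrane, fell against control in all 4 KBrO3 groups. Sdhc read 3.29, 3.30 and 3.26 in control and 2.75, 2.85 and 2.77 after KBrO3 at 4 hr, and 2.60, 2.56 and 2.50 after co-exposure. Its log2 fold changes against control were -0.49, -0.73, -0.62 and -0.54 for KBrO3 4 hr, co-exposure 4 hr, KBrO3 24 hr and co-exposure 24 hr, with no array of any of these groups overlapping the controls. Normexp ended the call of Sdhc in all but co-exposure at 4 hr (-0.22, -0.29 and -0.17 for KBrO3 4 hr, KBrO3 24 hr and co-exposure 24 hr), and array median scaling ended it for co-exposure at 24 hr (-0.22). Sdhd read 4.24, 4.33 and 4.14 in control, 3.98, 3.96 and 3.96 with KBrO3 and 3.56, 3.46 and 3.60 with co-exposure at 4 hr. The addition of BPA changed Sdhd by -0.43 ± 0.064 at 4 hr (adjusted p = 1.47e-04), a call lost under normexp (-0.44). Normexp also ended the calls of Sdhd against control after KBrO3 at both times, as did array median scaling at 24 hr (-0.23).

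At 24 hr Sdhd read 4.05, 4.14 and 3.90 after co-exposure, against 3.82, 3.88 and 3.87 after KBrO3. Its change against control at that time, -0.21 after co-exposure, was positive under array median scaling (0.11) and normexp (0.12), and was lost without control replicate 2. Sdha, the flavoprotein that oxidizes succinate, and Sdhb, the iron-sulfur subunit, did not pass the test at 4 hr in either group. After KBrO3 at 24 hr Sdha rose by 0.31 ± 0.0498 and Sdhb by 0.33 ± 0.0522 (adjusted p = 1.44e-04 and 1.31e-04). With BPA added at 24 hr Sdha was lower than with KBrO3 alone (1.54, 1.47 and 1.55 against 1.83, 1.78 and 1.71, difference -0.26 ± 0.0498), a call lost under array median scaling (-0.087) and normexp (-0.27), and Sdhb, at 3.96, 3.89 and 3.77 against 3.75, 3.84 and 3.91, was not called.

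**Figure D3:**
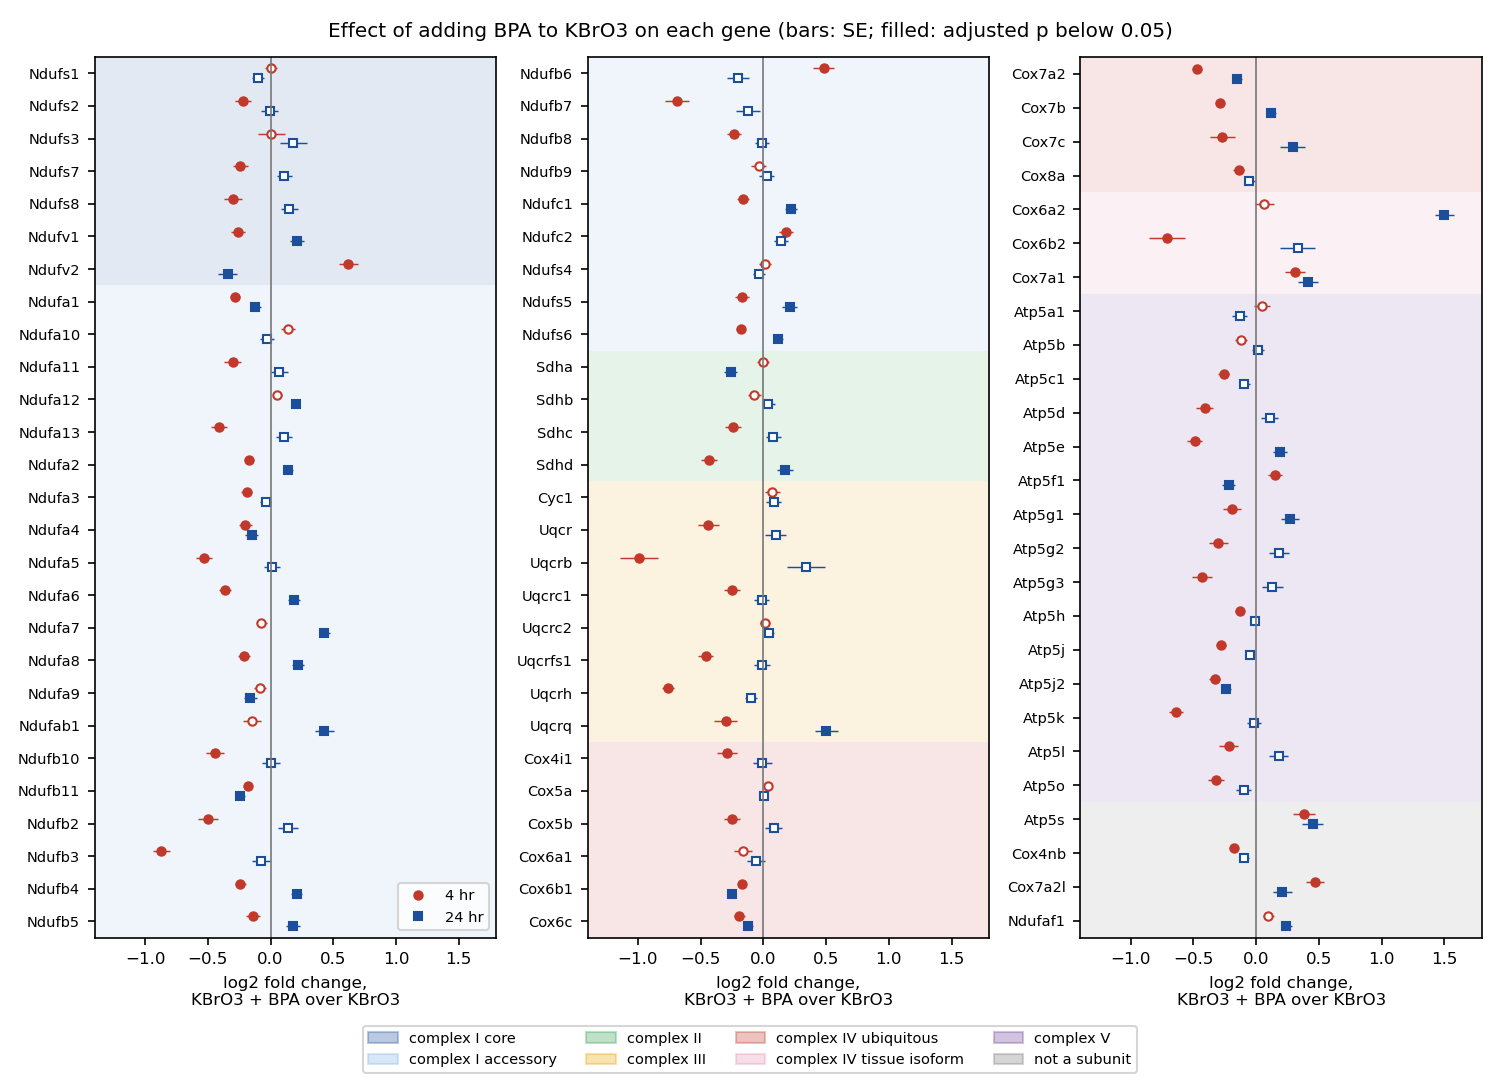
Log2 fold change of KBrO3 + BPA over KBrO3 for each of 80 members at 4 hr (red circles) and 24 hr (blue squares), ordered by role, with SE as bars and filled symbols where the adjusted p was below 0.05. Most red symbols lie left of 0 (54 called lower), whereas 23 blue symbols were called higher and 11 lower.

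A few members moved the other way when BPA was added at 4 hr. Ndufv2, a core iron-sulfur subunit of complex I, read 2.00, 2.06 and 2.01 after KBrO3 and 2.64, 2.65 and 2.63 after co-exposure, with controls at 2.24, 2.34 and 2.33 between them. Against control, Ndufv2 changed by -0.28 ± 0.0752 with KBrO3 and by 0.34 ± 0.0752 with co-exposure, both called. The difference between them was 0.62 ± 0.0752 (adjusted p = 3.12e-05). At 24 hr the order was reversed, with 2.84, 2.86 and 2.76 after KBrO3 and 2.46, 2.30 and 2.68 after co-exposure (difference -0.34 ± 0.0752, adjusted p = 0.00288). That call was lost under array median scaling (-0.17) and normexp (-0.36), whereas the call at 4 hr remained under all 3 other scalings.

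Ndufb6, an accessory subunit of complex I, read 3.67, 3.70 and 3.68 with KBrO3 and 4.16, 4.14 and 4.20 with co-exposure at 4 hr, a difference of 0.48 ± 0.0862. All 3 co-exposed arrays exceeded the controls, which read 3.67, 3.78 and 3.83. The other 5 higher members, with differences of 0.15 to 0.47, were Atp5f1 (the b subunit of the ATP synthase stalk), Cox7a1, Ndufc2 and 2 genes that are not subunits, Atp5s and Cox7a2l. The call of Atp5f1 (0.15 ± 0.053) was lost when any 1 of the 6 arrays was left out, and another oligonucleotide of the gene was called lower (-0.36).

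Among the members called higher than control in all 4 groups given KBrO3 were Cyc1, Cox5a, Atp5f1, Ndufa10 and Ndufa12. These 4 comparisons share the same 3 control arrays. Cyc1, the haem-bearing cytochrome c1 of complex III, read 4.34, 4.43 and 4.49 in control, 4.75, 4.82 and 4.82 with KBrO3 and 4.86, 4.84 and 4.90 with co-exposure at 4 hr. At 24 hr it read 5.17, 5.30 and 5.29 and 5.41, 5.38 and 5.22. Its log2 fold changes against control were 0.38, 0.45, 0.83 and 0.91 in the order KBrO3 4 hr, co-exposure 4 hr, KBrO3 24 hr and co-exposure 24 hr, with no overlap with the controls (largest of the 4 adjusted p = 1.03e-04). The addition of BPA changed Cyc1 by 0.072 ± 0.0598 at 4 hr and 0.082 ± 0.0598 at 24 hr, neither of which was called.

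Cox5a, a matrix-side subunit of complex IV, rose by 0.50, 0.54, 0.46 and 0.46 in the same 4 groups (SE 0.0325). Controls read 5.38, 5.44 and 5.40 and the 12 treated arrays of the set read 5.85 to 5.97. The addition of BPA differed from KBrO3 by 0.039 at 4 hr and 0.0059 at 24 hr, neither called. Atp5f1 rose by 0.45, 0.60, 0.42 and 0.20, from controls at 4.94, 4.90 and 4.86 to 5.36, 5.34 and 5.35 after KBrO3 at 4 hr. Ndufa10, an accessory subunit of complex I, rose by 0.33, 0.46, 0.60 and 0.58, and Ndufa12, another, by 0.27, 0.33, 0.45 and 0.65; under quantile normalization the first of the Ndufa12 values was -0.011.

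By 24 hr after KBrO3 alone, 20 of 80 members had risen and 33 had fallen (25% and 41.2%), where 29.6% of all genes rose and 36.7% fell. Complex I was divided, with 3 of 7 core subunits higher and none lower, and 4 of 29 accessory subunits higher and 14 lower. Complexes III and IV were balanced (3 higher and 3 lower of 8, and 2 higher and 3 lower of 10 ubiquitous subunits), and in complex V 4 rose and 8 fell. Quantile normalization gave 34 higher and 16 lower, array median scaling 29 and 9, and normexp 30 and 4, so the majority direction turned with the scaling. Those rising under all 4 scalings numbered 19, among them Cyc1, Cox5a, Sdha, Sdhb, Ndufs1, Ndufs7, Ndufv2, Atp5a1, Atp5b, Uqcrc1 and Uqcrc2, and the 3 falling under all 4 were Atp5s, Cox7a1 and Ndufb5.

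Ndufb5 and Ndufa13 had the largest falls among ubiquitous subunits at this time. Ndufb5, a membrane-arm accessory subunit of complex I, read 1.70, 1.72 and 1.60 in control and 0.87, 0.93 and 0.95 after KBrO3 at 24 hr, a change of -0.76 ± 0.0542 (adjusted p = 1.21e-07). Ndufa13, an accessory subunit also known as GRIM-19, read 6.86, 6.91 and 6.92 and 6.08, 6.18 and 6.28, a change of -0.71 ± 0.0627. Both were also lower after co-exposure at 24 hr (-0.58 ± 0.0542 and -0.60 ± 0.0627), with no array overlapping the controls. In both comparisons Ndufb5 was called lower under all 4 scalings and Ndufa13 was not.

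After co-exposure at 24 hr, 25 of 80 members were higher and 27 lower than control (31.2% and 33.8%), where 31.5% of all genes were higher and 38.8% lower. Core subunits of complex I (4 of 7) were higher and none lower, and the median log2 fold change of the members was -0.034. Quantile normalization gave 27 and 23, array median scaling 45 and 3, and normexp 33 and 2. Ndufb5 was the only member lower under all 4 scalings, and 25 were higher under all 4.

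Adding BPA to KBrO3 gave fewer calls at 24 hr, with more members higher than lower. Of 80 members, 23 were higher and 11 lower (28.7% and 13.8%), where 24.9% of all genes were higher and 22.7% lower, and the median was 0.058. Quantile normalization turned this to 14 higher and 31 lower with a median of -0.068, array median scaling gave 31 and 0, and normexp left 2 higher (Atp5s and Cox6a2) and 0 lower. On the slide that held 2 arrays of each group, the median difference of the members was 0.064. Uqcrq, a small subunit of complex III, rose most after Cox6a2, from 5.99, 6.14 and 6.26 after KBrO3 to 6.74, 6.76 and 6.38 after co-exposure (0.50 ± 0.0914, adjusted p = 8.08e-04). A second, dimmer oligonucleotide that the array assigns to Uqcrq rose against control at 4 hr, by 2.39 after co-exposure, where the brightest gave -0.27, so the 2 disagreed there. With BPA added to KBrO3 at 4 hr the second was called higher (0.61) and the brightest lower (-0.30).

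The change of the BPA effect between 4 hr and 24 hr was tested as an interaction. Of 80 members, 46 had a more positive effect at 24 hr and 4 a more negative effect (57.5% and 5%), where 27.8% and 28% of all genes did so. For 17 members the effect of BPA was called at both times in opposite directions with the interaction also called, and 15 of these were lower at 4 hr and higher at 24 hr. These were 21.2% and 18.8% of the members, where 13.1% and 7.86% of all genes met the same conditions. Both calls remained for 6 of the 17 under quantile normalization, 15 under array median scaling and 0 under normexp, and for 9 when any 1 array was left out. The interaction includes the comparison at 4 hr, in which slide and treatment cannot be told apart. The median interaction was 0.29, and it was 0.089 under quantile normalization, 0.60 under array median scaling and 0.27 under normexp. Uqcrb had the second largest interaction, 1.33 ± 0.21, after Cox6a2 at 1.43 ± 0.108. The 2 members (2.5%, where 5.2% of all genes did so) that went from higher to lower were Ndufv2 (-0.96 ± 0.106) and Atp5f1 (-0.37 ± 0.075), whose oligonucleotides disagreed at 4 hr. Those of Uqcrq, which is among the 15, disagreed at 4 hr as well.

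The same contrast can be read as the change over time within each treatment. From 4 hr to 24 hr after KBrO3, 20 members rose and 34 fell (25% and 42.5%), where 32.5% of all genes rose and 43.1% fell. Against control, 4 members went from called higher at 4 hr to called lower at 24 hr after KBrO3 and 3 the other way, with the difference called (5% and 3.75%), where 7.04% and 6.89% of all genes did so. After co-exposure 49 rose and 13 fell (61.3% and 16.2%), where 33.5% of all genes rose and 49.1% fell. In the KBrO3 cells, 8 of 10 ubiquitous subunits of complex IV and 9 of 15 of complex V fell with none rising, and 8 accessory subunits of complex I rose and 11 fell. In the co-exposed cells, 20 of 29 accessory and 6 of 7 core subunits of complex I, 4 of 4 of complex II and 7 of 8 of complex III rose. The median change after co-exposure, 0.20, was positive under all 4 scalings (0.24 to 0.66 under the 3 others), whereas that after KBrO3, -0.042, was positive under the 3 others (0.016 to 0.36). No slide held arrays of both times for either treatment. In a fit with slide as a fixed block, which links the co-exposed groups through the KBrO3 24 hr arrays, 36 members rose and 8 fell after co-exposure, with a median of 0.18 against -0.14 for all probes; the change after KBrO3 could not be fitted this way.

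**Figure D4:**
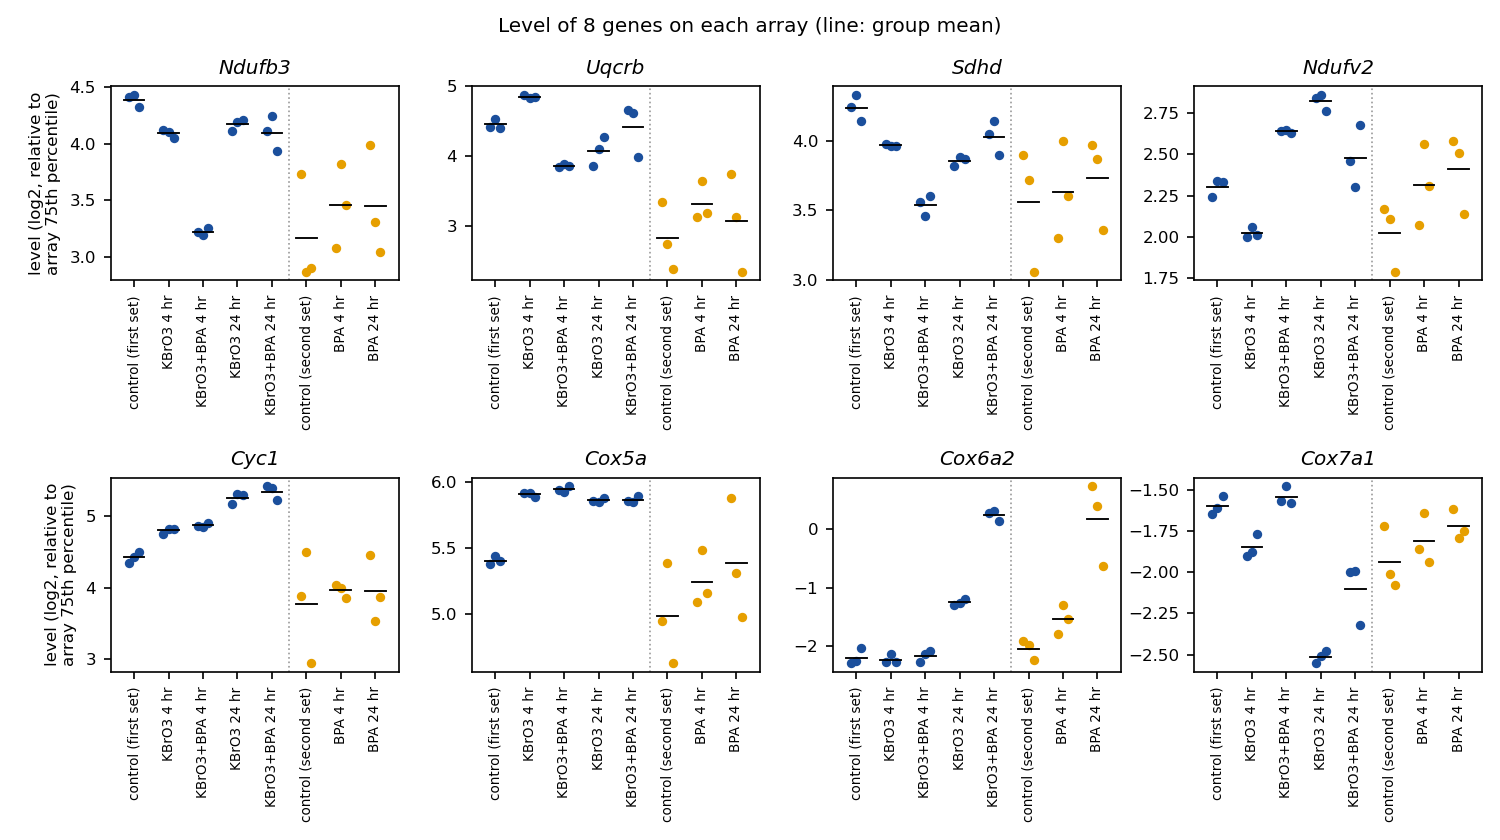
Level (log2, relative to the 75th percentile of each array) of 8 members on every array, with group means as lines; first set in blue, second set in orange. By group mean, Ndufb3, Uqcrb and Sdhd are lowest of the first set after co-exposure at 4 hr, Cyc1 and Cox5a lie above the controls on all 12 treated arrays of the first set, and Cox6a2 rises at 24 hr in both sets.

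BPA without KBrO3 was measured in the second set. At 4 hr no member of 82 passed the test, where 2.78% of all 21475 genes were higher and 1.47% lower. Without adjustment, 0 of the 82 had a p below 0.05 in limma's test at 4 hr and 3 (3.66%) at 24 hr, where 18.8% and 19.3% of all genes did. The fit of all 24 arrays together called 2 and 8 members, and 22.9% and 22% of all genes. The median log2 fold change at 4 hr was 0.25, but it was 0.055 without control replicate 3, the array with the lowest member median, 0.09 without BPA 4 hr replicate 2, and -0.19 between the 2 BPA arrays and the control that shared a slide. At 24 hr 1 member was higher and none lower (1.22% and 0%), where 1.5% of all genes were higher and 2.15% lower, and the median was 0.17, with 0.51 and 0.42 within the 2 slides that held both groups. Without BPA 24 hr replicate 1, whose member median was 4.40 against 3.76 and 3.64 on the other 2, the median was -0.018, and without control replicate 3 it was 0.013. Between 24 hr and 4 hr of BPA 1 member rose and none fell (1.22% and 0%), where 1.06% of all genes rose and 2.92% fell.

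Cox6a2, the heart and skeletal muscle isoform of a complex IV subunit, was the member called after BPA alone, and it rose at 24 hr in both sets. In the first set it read -2.29, -2.26 and -2.04 in control, and neither 4 hr group differed from control by more than 0.033. At 24 hr it read -1.30, -1.27 and -1.19 after KBrO3 and 0.28, 0.31 and 0.14 after co-exposure. The groups did not overlap, and the changes against control were 0.94 ± 0.0766 and 2.44 ± 0.0766 (adjusted p = 3.78e-07 and 4.97e-11). The addition of BPA to KBrO3 at 24 hr gave 1.5 ± 0.0766 (adjusted p = 2.54e-08), and 1.53 with slide as a fixed block.

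With BPA alone Cox6a2 read -1.79, -1.29 and -1.54 at 4 hr and 0.73, 0.40 and -0.63 at 24 hr, against controls at -1.92, -1.99 and -2.24. All 3 arrays at 24 hr exceeded all 6 others of the set, and the change against control was 2.22 ± 0.332 (adjusted p = 0.0104). That call was lost with normexp (1.74, adjusted p = 0.455), with slide as a fixed block (2.68, adjusted p = 0.0676) and in a fit of the 2 groups alone (adjusted p = 0.0583), and remained without any 1 array. The rise after KBrO3 alone at 24 hr was lost with normexp (0.18). The summed level of the 10 muscle markers was lower at 24 hr. Most of that sum came from Actc1 and Acta1, cardiac and skeletal actin, with mean levels of 1.04 and -1.11 in the first set's controls on the log2 scale, and 7 of the 10 were below background on all of those controls (2 of the 10 in the second set). Myh1, Myh3, Tnnt2, Myog and Mb were above background on 3 or 4 treated arrays of the first set, whose times are not given here. Their highest levels were -3.54, -4.89, -4.37, -5.07 and -4.84, against control means of -5.64, -7.75, -6.26, -6.65 and -6.52. The sum thus does not describe each marker. On the linear scale relative to the 75th percentile the sum was 2.44 to 2.96 in the first set's controls, 0.844 to 0.88 after KBrO3 at 24 hr and 0.31 to 0.402 after co-exposure at 24 hr, and 2.5 to 3.67 in the second set's controls and 1.25 to 1.73 after BPA at 24 hr. Cox6a1, the ubiquitous isoform of the same subunit, changed by -0.37 ± 0.0721 with KBrO3 and -0.43 ± 0.0721 with co-exposure at 24 hr, the first of which was lost under each of the 3 other scalings, and did not pass the test after BPA alone.

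No other tissue isoform tested was called higher than control at 24 hr. Cox7a1, the heart and muscle isoform, fell from -1.65, -1.61 and -1.54 in control to -2.55, -2.51 and -2.48 after KBrO3 at 24 hr (-0.91 ± 0.0791) and to -2.00, -1.99 and -2.32 after co-exposure (-0.50 ± 0.0791). The fall after co-exposure was not called under all 4 scalings. Like Cox6a2, Cox7a1 was called higher with BPA added to KBrO3 at 24 hr (0.41), a call lost under normexp. Its ubiquitous partner Cox7a2 rose after KBrO3 at 4 hr by 0.43 ± 0.038 and was lower with BPA added (difference -0.47 ± 0.038), where its difference from control was -0.04 ± 0.038 (not called). Cox6b2, the testis isoform, was lower after co-exposure than after KBrO3 at 4 hr (-2.74, -2.40 and -2.65 against -1.93, -1.91 and -1.82, difference -0.71 ± 0.142). Its partner Cox6b1 differed in the same comparison by -0.17 ± 0.0338.

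Cox4i1 and Cox8a, the ubiquitous isoforms of 2 further subunits, were lower with BPA added at 4 hr (-0.29 ± 0.0793 and -0.14 ± 0.0412), although for Cox8a quantile normalization gave 0.0062. Their partners Cox4i2, a lung isoform, and Cox8b, a heart and muscle isoform, were too dim to be tested in the first set and did not pass the test in the second. Ndufa4, first described with complex I and counted among its 29 accessory subunits here, although now placed in complex IV, was lower with BPA added at both times (-0.20 ± 0.053 and -0.15 ± 0.053), the later of which was lost in 5 of 6 fits that left out 1 array and was 0.02 under array median scaling. Normexp ended the calls with BPA added at 4 hr of Cox7a2, Cox6b2, Cox6b1, Cox4i1, Ndufa4 and Ndufb6.

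The 4 members that are not subunits held some of the largest changes at 4 hr. Atp5s, today named Dmac2l and called coupling factor B in older work, fell from 0.43, 0.52 and 0.57 in control to a mean of -1.03 ± 0.0512 (SD, n = 3) after KBrO3 (-1.54 ± 0.0854, adjusted p = 5.62e-09) and to -0.68, -0.70 and -0.58 after co-exposure. Ndufaf1, an assembly factor of complex I, fell from 1.45, 1.43 and 1.43 to 0.58, 0.59 and 0.54 (-0.87 ± 0.0438) and to 0.68, 0.63 and 0.68 after co-exposure. By 24 hr Ndufaf1 read 1.83, 1.77 and 1.70 after co-exposure, above all 3 controls (0.33 ± 0.0438). Cox4nb, today named Emc8, a subunit of the endoplasmic reticulum membrane complex that neighbours Cox4i1, rose from 1.58, 1.52 and 1.53 to 2.51, 2.52 and 2.50 after KBrO3 at 4 hr (0.97 ± 0.0387). Cox7a2l, a factor of respiratory supercomplexes, was higher with BPA added at both times (0.47 ± 0.0744 and 0.21 ± 0.0744).

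Genes that work beside the subunits are set against the share of all genes called with BPA added, which was 28.8% higher and 30.3% lower at 4 hr and 24.9% higher and 22.7% lower at 24 hr. Among 20 tested genes for cytochrome c and assembly factors, 6 were higher and 7 lower at 4 hr (30% and 35%), near that share, and 11 were higher and 1 lower at 24 hr (55% and 5%). Cycs, the mobile electron carrier cytochrome c, rose by 1.28 after KBrO3 at 4 hr and was lower with BPA added (-0.43) at that time. Of 17 genes of the citric acid cycle and pyruvate dehydrogenase, 5 were higher and 5 lower with BPA added at 4 hr (29.4% each), and 12 (70.6%) rose and none fell after KBrO3 at 24 hr, where 29.6% of all genes rose. Of 75 mitochondrial ribosomal genes, 24 were higher and 26 lower with BPA added at 4 hr (32% and 34.7%), with a median of 0.0017, and 50 were higher and 3 lower at 24 hr (66.7% and 4%). The 79 cytosolic ribosomal genes were more often lower at 4 hr (36 lower and 4 higher, 45.6% and 5.06%, median -0.14) and higher at 24 hr (65 higher and none lower, 82.3% and 0%, median 0.25).

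Of 15 regulators of mitochondrial genes, 5 were higher and 3 lower with BPA added at 4 hr (33.3% and 20%, where 28.8% and 30.3% of all genes were). Gabpa, the DNA-binding subunit of the ETS factor whose motif was searched above, rose by 0.41 after KBrO3 at 4 hr and was lower with BPA added (-0.64, adjusted p = 1.35e-05). Gabpb1, its partner subunit in the same factor, rose by 1.36 and was higher with BPA added (0.38, adjusted p = 0.00432). Nrf1 rose by 0.80 after KBrO3 and by 0.72 after co-exposure at 4 hr. Ppargc1a, a coactivator of mitochondrial genes, fell by 0.62 and 0.99 on the log2 scale in the same groups and was lower with BPA added (-0.36), as was Yy1 (-0.42). The other 4 that were higher with BPA added were Hif1a (0.71), Tfb1m (0.68), Tfb2m (0.24) and Pprc1 (0.22). Of the 46 members with a promoter that were lower with BPA added at 4 hr, 11 (23.9%) held the ETS letters and 13 (28.3%) the NRF1 letters, beside 23.9% and 22.4% of all 67 members.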

How the data were processed

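RNA of Ku70-/- mouse embryonic fibroblasts was hybridised by the authors to Agilent 1-colour whole-mouse-genome arrays, 15 in a first set and 9 in a second. Per the file headers, the deposited values were Feature Extraction (9.5.3.1 and 12.0.0.7) processed signal intensities, which are background-corrected by the scanner software and not normalized between arrays. The labels give 4 hr and 24 hr for BPA alone, and the methods describe slightly longer exposures.

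Here log2 of the processed signal minus each array's 75th percentile was taken, spots of an oligonucleotide were averaged, control spots were left out, and each set was fitted apart with limma 3.58.1 (R 4.3.3; lmFit, eBayes) over all its groups. A total of 27310 and 31809 oligonucleotides, those well above background throughout at least 1 group, were tested, with Benjamini-Hochberg adjustment over all of them. A gene was represented by its brightest oligonucleotide. The fits were tested on simulated data. Named genes were the members with the largest called changes, together with complex II and the complex IV isoform pairs; others are said to be picked after their values were seen. Members and lists were chosen with earlier results of these data known. Alternatives were quantile, array median and normexp scaling (on the median signal in the second set), slide and replicate blocks, a fit of the 2 groups or of all arrays, the threshold of the methods (Bonferroni-adjusted p below 0.01 and over 1.5-fold) and leaving out each array. Precision is limited by having 3 arrays in each group.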

Additional observations from a re-analysis of the deposited data

Results flagged for a closer look

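For 17 members the effect of adding BPA to KBrO3 was called at both times with opposite signs, and the interaction was called as well. That was 21.2% of the members, where 13.1% of all genes met the same conditions. Both calls remained for 6 of them under quantile normalization, 15 under array median scaling, 0 under normexp and 9 when any 1 array was left out. For the members named by rule, the change of the effect from 4 hr to 24 hr on the log2 scale is given next: Ndufv2 (a core complex I subunit) gave -0.96, Uqcrq (complex III) 0.79, Sdhd (complex II) 0.60, Atp5f1 (complex V) -0.37 and Ndufb5 (an accessory complex I subunit) 0.32. With BPA added at 4 hr, oligonucleotides were called in opposite directions for Uqcrq (-0.30 and 0.61) and Atp5f1 (-0.36 and 0.15). The remaining members of the 17 were Atp5e, Atp5g1, Cox7b, Cox7c, Ndufa2, Ndufa6, Ndufa8, Ndufb4, Ndufc1, Ndufs5, Ndufs6 and Ndufv1, all lower with BPA at 4 hr and higher at 24 hr, with changes of up to 0.68 (Atp5e). Leaving out 1 array ended the call of Sdhd at 24 hr (0.17) in 5 of 6 fits, of Ndufb5 at 4 hr (-0.14) in 5 of 6 and at 24 hr (0.18) in 3 of 6, and of Atp5f1 at 4 hr (0.15) in 6 of 6.

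For 7 members the effect of KBrO3 against the shared controls was called at both 4 hr and 24 hr with opposite signs and the difference between the times was called as well. That was 8.75% of the members, a smaller share than the 13.9% of all genes. Both calls remained for 3 of them under quantile normalization, 2 under array median scaling, 0 under normexp and 2 (Ndufv2 and Uqcrh) when any 1 array was left out. Ndufv2 rose by 0.80 from 4 hr to 24 hr, and Uqcrb changed by -0.77, although its calls at 4 hr (0.39) and 24 hr (-0.38) were each lost in 5 of 6 fits that left out 1 array. The others were Atp5g3, Cox7b and Uqcrh, which went from higher to lower, and Ndufs1 and Ndufs7, which went from lower to higher. The controls were labelled 4 hr, so for the later values the hours in culture cannot be told apart from the treatment.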

How the results depend on the processing

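Scaling turned directions as well as counts. Members called after KBrO3 at 4 hr numbered 40, and 61, 26 and 24 under quantile, array median and normexp scaling (medians -0.28, -0.014 and 0.26). After KBrO3 at 24 hr they numbered 53, and 50, 38 and 34, with more higher than lower under all 3 (medians 0.066, 0.059 and 0.25). After co-exposure 62 were called at 4 hr and 21 under normexp (median 0.07), and 52 at 24 hr, with 48 and 35, mostly higher, under array median scaling and normexp (medians 0.015, 0.28 and 0.30 under the 3). With BPA added, 61 were called at 4 hr and 8 under normexp, and 34 at 24 hr, with 45 under quantile normalization (median -0.068) and 2 under normexp. The change over time after KBrO3 turned to 0.36, 0.11 and 0.016. The cause was not tested.

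Single genes turned sign under normexp for Cox6a1 (0.12), Cox8a (0.20), Ndufa4 (0.14) and Uqcrq (0.027) after co-exposure at 4 hr, Ndufa13 (0.15) and Ndufb3 (0.0054) after KBrO3 at 4 hr, Ndufb3 (0.15) and Uqcrb (0.026) after KBrO3 at 24 hr, and Ndufb3 (0.029) and Sdhd (0.12) after co-exposure at 24 hr. Array median scaling turned Cox6b1 (0.041), Ndufb3 (0.03) and Sdhd (0.11) after co-exposure at 24 hr, and Cox7a2 (0.023) and Ndufa4 (0.02) with BPA added at 24 hr. Quantile normalization turned Cox4i1 (-0.13) and Ndufa12 (-0.011) after KBrO3 at 4 hr and Cox8a (0.0062) with BPA added at 4 hr. Of 116 named calls, normexp kept 62, array median scaling 91 and quantile normalization 105.

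A fit of all 24 arrays called 8, 22, 17 (9 of them higher) and 16 members for KBrO3 4 hr, co-exposure 4 hr, KBrO3 24 hr and co-exposure 24 hr, 2 and 8 for BPA alone at 4 hr and 24 hr, and 12 and 2 for BPA added at 4 hr and 24 hr. The threshold of the methods gave 3, 10, 6, 3, 0, 0, 3 and 1 in the same order. In the fit of all 24 arrays, 22.9% and 22% of all genes were called for BPA alone at 4 hr and 24 hr. The shares of all genes for the other counts here and in the next paragraph are not given. Those counts therefore do not compare the members with other genes. With only the 2 groups fitted, BPA added at 24 hr gave 13 and BPA 24 hr 0; BPA 24 hr also gave 0 with normexp and with slide as a fixed block. The median after BPA 4 hr was -0.19 with slide as a fixed block and within slide 3. Leaving out 1 array at a time gave medians of -0.048 to 0.005 for KBrO3 + BPA 24 hr against control, above 0 without KBrO3 + BPA 24 hr replicate 3.

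Replicate numbers did not pair the samples (mean correlation of deviations -0.0294 and 0.00201 in the 2 sets). With the replicate number as a block, 39, 59, 50 and 47 members were called in the 4 comparisons of KBrO3 groups with control, 0 and 1 for BPA alone, and 56 and 30 for BPA added at 4 hr and 24 hr.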
